A study of Rattus norvegicus with 9 samples.

Results

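The 8 genes Pax6, Rax, Six3, Six6, Lhx2, Otx2, Meis1 and Meis2 encode homeobox transcription factors of the eye field, and their RNA was compared between primary rat retinal progenitor cells and cells made from rat embryonic stem cells. They were taken by gene symbol with every probe set that the array's annotation gives them, 10 of 31042 probe sets for 8 of 14217 named genes. Rax and Otx2 had 2 probe sets each and the other genes had 1.

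The eye field is the region of the anterior neural plate from which both retinas arise, and it is marked by a set of transcription factors that activate and maintain one another. Rax is needed for the optic vesicle to form, Pax6 for eye development in many animals and for the multipotency of retinal progenitors, and Six3, Six6 and Lhx2 act beside them. Otx2 patterns the forebrain before it marks photoreceptor precursors and pigment epithelium, and Meis1 and Meis2 are homeodomain cofactors that act with PBX proteins at eye genes. Several of these factors are also used in the hypothalamus, the pituitary, the telencephalon or the lens, so that none marks the retina alone.

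The study grew rat ES cells toward retinal progenitors as donor cells and set their expression against that of primary progenitors, with 3 arrays in each of 3 groups. P-RPC were cells of papain-dissociated neural retina, taken from SD rats on postnatal day 1, and no sorting of progenitors was described. rESC-RPC1 and rESC-RPC2 came from ES cells with a DA rat background (the methods name 1 line, DA8-16). These were aggregated by the SFEBq method with Matrigel and the Wnt inhibitor IWR-1e, given FBS from day 8 and harvested on day 16. The rESC-RPC1 cells were plated for adherent growth on day 10 and moved to N2 medium with FBS on day 14, whereas the rESC-RPC2 aggregates stayed in suspension until day 14. The study also built a line with EGFP in an allele of Rax, and the labels of these arrays name neither line. Rat strain, tissue of origin and culture cannot be told apart between P-RPC and either kind of rESC-RPCs, nor can the day of plating and the N2 medium between rESC-RPC1 and rESC-RPC2. All arrays were of bulk RNA, in which fewer cells of a type and less RNA per cell cannot be told apart.

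Values are MAS5 signals, a linear measure of brightness, and levels of different probe sets of the factors were not set against each other. Sums over lists of marker genes do add such levels, so that each gene weighs in them by the brightness of its probe set. A signal at or above 123, the median of all values on the 9 arrays, was taken as detected, and 48.6% to 50.7% of probe sets reached it on each array. A probe set was called when limma's adjusted p was under 0.05 and its log2 fold change was at least 1 in size, and ± marks SD over 3 arrays for signals and the standard error for log2 fold changes. Where all 3 arrays of the dimmer group lay under the threshold, the fold is known only as a lower bound, taken from that threshold; a fitted value printed for such a probe set is named as fitted and is no measured fold. On the P-RPC arrays, the lens genes of replicate 1 stood apart, with a summed signal of 135310 against 2603 and 7007 in the other replicates. The signals of the eye field factors did not separate that array from the others.

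The table of RefSeq promoters used here (build GRCr8) matched 6 of the 8 genes, all but Otx2 and Meis2. The 3 printed here, each 250 bases up to the annotated start, are those that contain TGACAG, the core of the sequence that MEIS proteins bind. They are read 5′ to 3′ on the strand of the gene, with that core in capitals. The windows lie at chr3:112590346-112590595 on the plus strand for Pax6, chr6:14796257-14796506 on the minus strand for Six3 and chr6:97370185-97370434 on the plus strand for Six6.
Pax6: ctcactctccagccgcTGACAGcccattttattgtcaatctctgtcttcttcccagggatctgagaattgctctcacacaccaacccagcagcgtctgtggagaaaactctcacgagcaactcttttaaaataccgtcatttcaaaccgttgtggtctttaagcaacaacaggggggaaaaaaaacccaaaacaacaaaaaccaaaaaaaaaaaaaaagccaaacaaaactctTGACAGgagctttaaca
Six3: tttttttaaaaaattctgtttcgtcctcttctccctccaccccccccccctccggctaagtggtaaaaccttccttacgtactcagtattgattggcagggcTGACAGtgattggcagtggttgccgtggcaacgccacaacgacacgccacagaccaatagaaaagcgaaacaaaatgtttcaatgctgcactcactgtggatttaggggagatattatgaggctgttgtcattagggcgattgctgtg
Six6: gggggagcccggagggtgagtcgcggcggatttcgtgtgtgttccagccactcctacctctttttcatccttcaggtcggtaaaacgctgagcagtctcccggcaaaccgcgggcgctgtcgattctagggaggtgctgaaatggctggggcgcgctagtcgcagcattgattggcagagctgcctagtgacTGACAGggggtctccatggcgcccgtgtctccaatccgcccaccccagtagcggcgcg

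TGACAG, searched on both strands (CTGTCA on the other), occurred 2 times before Pax6, at 234 and 17 bases before the start. It occurred 1 time before Six3, at 148 bases, and 1 time before Six6, at 58 bases. Of 33469 promoters of the same length, 15.8% held it, so that a match is common. The windows of Rax, Lhx2 and Meis1 held none, which says only that these letters are not in those windows. TAATCC, the core that OTX proteins bind, was in none of the 6 windows and in 6.34% of all promoters. TAATTA, a palindrome that paired-type homeodomains bind, was also in none of the 6 and in 4.86% of all. CCAAT, like the other motifs searched on both strands (ATTGG on the other), occurred 3 times before Six3 and 2 times before Six6. At least 1 was in 34% of all promoters.

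The Six3 and Six6 windows also shared the run attgattggcag, 12 bases long, which overlaps a CCAAT box on the other strand and begins 163 bases before the start of Six3 and 84 before that of Six6. It was the longest run shared by any of the 15 pairs of windows, and 5 of 33469 promoters held it on either strand, these included. The run was picked after the windows had been compared, and it is a description of sequence, with no test.

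Against P-RPC, the RNA of the eye field factors was lower in both kinds of rESC-RPCs, by amounts that ran from under 2-fold for Lhx2 in rESC-RPC1 to over 100-fold for Pax6. In rESC-RPC1, 8 of the 9 tested probe sets were called lower, 1 was not called and 0 were higher, against 10.6% of all tested probe sets called lower and 11.3% called higher (21.9% called in all). In rESC-RPC2, all 9 tested probe sets were called lower, against 12.4% called lower and 11.4% called higher over all probe sets (23.9% called in all). The median log2 fold change of the 9 was -3.36 in rESC-RPC1 and -3.06 in rESC-RPC2, beside -0.05 and -0.01 over all tested probe sets, and -3.10 and -3.06 with probe sets under the threshold set at their bound. Both comparisons share the P-RPC arrays. Pax6, one Rax probe set and one Otx2 probe set reached the threshold on the 3 P-RPC arrays and on at most 1 other, so these 3 could be tested only because they were high in P-RPC. The other 6 tested probe sets were detected on at least 2 arrays of every group.

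**Figure D1:**
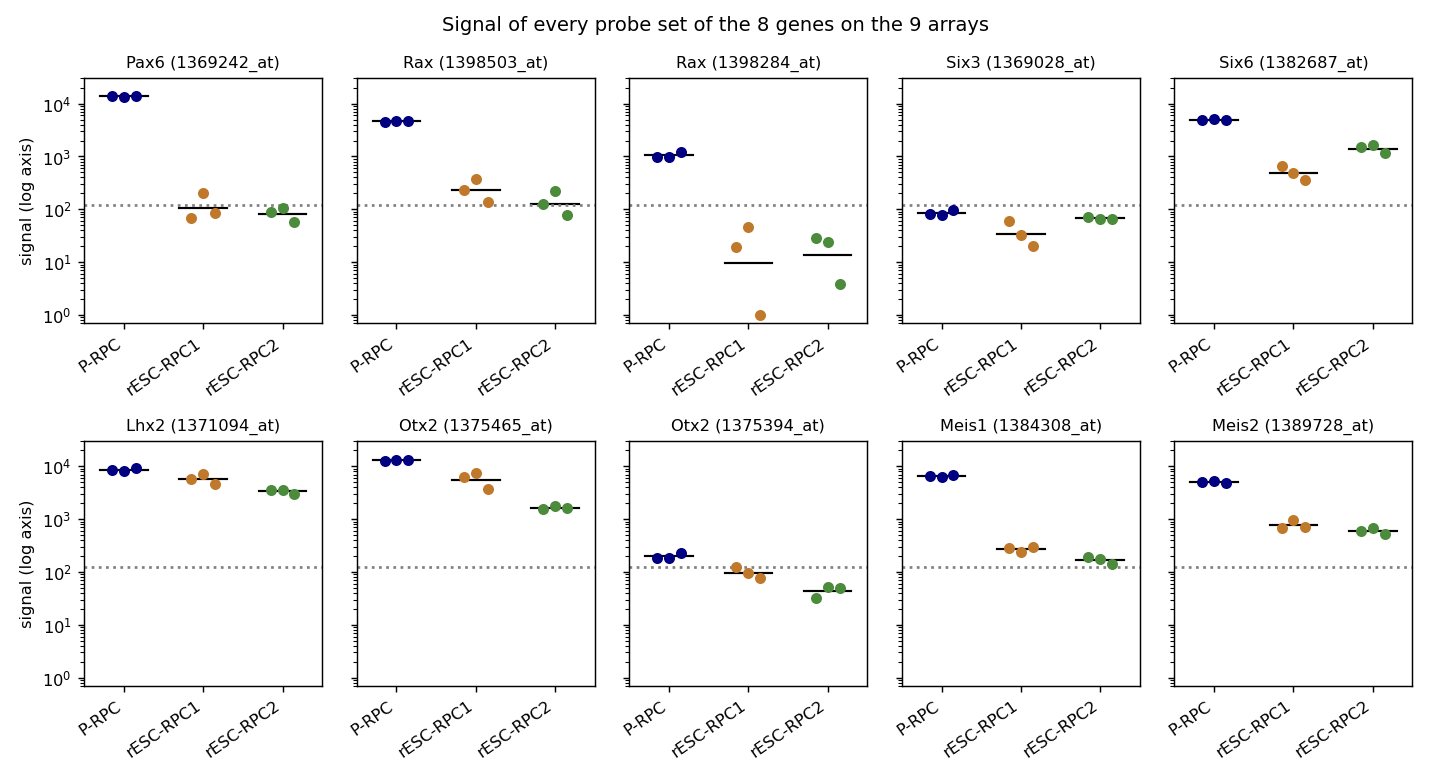
Signal (vertical log axis, no unit) of the 10 probe sets of the 8 genes on the 9 arrays; each point is an array, the bar is the geometric mean of 3 arrays and the dotted line is the detection threshold of 123. Every P-RPC point of the 9 tested probe sets lies above every rESC-RPC point, whereas all 9 points of Six3 lie under the line.

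Pax6, a paired-domain and homeodomain factor, was bright in P-RPC and under the threshold on 5 of the 6 rESC-RPC arrays. Its probe set (1369242_at) read 14206, 13484 and 14227 on the P-RPC arrays, 67.4, 204 and 84.2 on those of rESC-RPC1 and 89.9, 106 and 58.5 on those of rESC-RPC2. Only replicate 2 of rESC-RPC1 reached the threshold among the 6 rESC-RPC arrays, and P-RPC overlapped neither group. In rESC-RPC1, with 1 of 3 arrays detected, the fitted log2 fold change against P-RPC was -7.06 ± 0.35 (133-fold lower, adjusted p = 9.55e-08). With signals raised to the threshold it was -6.59. In rESC-RPC2, with 0 of 3 detected, Pax6 was at least 114-fold lower (adjusted p = 6.86e-08). rESC-RPC2 and rESC-RPC1 overlapped and were not called different (adjusted p = 0.446), and signals this low give no fold between them.

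Rax, the retinal homeobox factor, was read by 2 probe sets. The brighter (1398503_at) read 4557, 4615 and 4696 on the P-RPC arrays, 231, 382 and 135 on those of rESC-RPC1 and 125, 222 and 76.6 on those of rESC-RPC2. All 3 rESC-RPC1 arrays and 2 of 3 rESC-RPC2 arrays were at or above the threshold, at 382 or less. Its log2 fold change against P-RPC was -4.34 ± 0.39 in rESC-RPC1 (20.2-fold lower, adjusted p = 6.08e-06) and -5.17 ± 0.39 in rESC-RPC2 (35.9-fold lower, adjusted p = 1.55e-06). rESC-RPC2 and rESC-RPC1 overlapped, with a change of -0.83 (95% interval -1.69 to 0.04, adjusted p = 0.11) that was not called. That value was called at -1.21 without replicate 3 of rESC-RPC1 and at -1.22 without replicate 2 of rESC-RPC2.

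The second Rax probe set (1398284_at) read 993, 979 and 1198 on the P-RPC arrays, 19.6, 46.7 and 1 (the floor) on those of rESC-RPC1 and 28.1, 24.1 and 3.88 on those of rESC-RPC2. None of the 6 rESC-RPC arrays was detected, so Rax was at least 8.58-fold lower by this probe set in each kind of cells (adjusted p = 0.000764 in rESC-RPC1 and 0.00115 in rESC-RPC2). The fitted changes of both Rax probe sets differed by -2.42 in rESC-RPC1 (95% interval -4.52 to -0.32, adjusted p = 0.104) and by -1.09 in rESC-RPC2 (adjusted p = 0.462). Neither difference was called, against 6.56% and 7.21% of 3095 pairs of probe sets of the same gene. Without replicate 2 of rESC-RPC1 the first difference was called at -3.18, and with signals raised to the threshold it turned to 1.24 and the second to 1.84, so that the probe sets give no settled order.

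Six6, a sine oculis-type homeodomain factor of the retina, hypothalamus and pituitary, was the member called higher in rESC-RPC2 than in rESC-RPC1. Its probe set (1382687_at) read 4858, 5026 and 4949 on the P-RPC arrays, 651, 477 and 357 on those of rESC-RPC1 and 1517, 1625 and 1145 on those of rESC-RPC2. All 9 arrays were detected and no groups overlapped, with rESC-RPC2 between the other 2. Against P-RPC the log2 fold change was -3.36 ± 0.20 in rESC-RPC1 (10.3-fold lower, adjusted p = 2.74e-07) and -1.81 ± 0.20 in rESC-RPC2 (3.50-fold lower, adjusted p = 1.96e-05). In rESC-RPC2 it was 2.94-fold higher than in rESC-RPC1 (log2 fold change 1.56, 95% interval 1.13 to 1.99, adjusted p = 0.000115). The geometric mean stood at 9.71% of P-RPC in rESC-RPC1 and at 28.6% in rESC-RPC2. Of 6 tested markers of ventral forebrain and hypothalamus, 4 were also called higher in rESC-RPC2, where 5.02% of all tested genes were. Gad2, among these, was detected in rESC-RPC2 alone, so that the filter set its direction. Nkx2-1 was not called, at 3138 and 2081 on average (log2 fold change -0.58 ± 0.18, adjusted p = 0.0234), and Pomc, Otp and Sim1 were under the threshold. The summed signal of the list was 5899 to 8309 in rESC-RPC1 and 19377 to 20798 in rESC-RPC2, a rise that came mainly from Sst (1276 and 7321 on average) and Npvf (262 and 5443), and its part in the Six6 difference was not tested.

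Six3, the close relative of Six6 and a repressor of Wnt signalling in the anterior neural plate, was under the threshold on all 9 arrays. Its probe set (1369028_at) read 83.1, 77.2 and 95.7 on the P-RPC arrays, 59.0, 32.4 and 20.5 on those of rESC-RPC1 and 72.0, 65.9 and 66.7 on those of rESC-RPC2. It was left out of the main test and gives no fold, since no group had a detected array. It enters the fit only without a filter, where limma gave, against P-RPC, an adjusted p of 0.0202 for rESC-RPC1 and of 0.58 for rESC-RPC2, from signals that all lie under the threshold. Whether this probe set reads the Six3 transcript of these cells was not tested, and a low signal in P-RPC also does not show that the RNA was absent there.

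Lhx2, a LIM homeodomain factor needed for the optic vesicle, kept the largest share of its P-RPC signal among the tested members. Its probe set (1371094_at) read 8508, 8212 and 9329 on the P-RPC arrays, 5658, 7043 and 4556 on those of rESC-RPC1 and 3558, 3639 and 2963 on those of rESC-RPC2. No groups overlapped, and the order was P-RPC, rESC-RPC1, rESC-RPC2. In rESC-RPC1 the log2 fold change was -0.61 ± 0.14 (adjusted p = 0.00344), under the size needed for a call, and in rESC-RPC2 it was -1.36 ± 0.14 (2.57-fold lower, adjusted p = 1.42e-05). The step from rESC-RPC1 to rESC-RPC2 was -0.75 ± 0.14 (adjusted p = 0.00153), also under that size. The rESC-RPC1 geometric mean was 65.3% of that of P-RPC and the rESC-RPC2 one 38.9%.

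Otx2 was lower in rESC-RPC2 than in rESC-RPC1 by both of its probe sets. The brighter (1375465_at) read 12650, 13284 and 12973 on the P-RPC arrays, 6193, 7644 and 3663 on those of rESC-RPC1 and 1571, 1741 and 1634 on those of rESC-RPC2. No groups overlapped, and the rESC-RPC1 arrays spread over 2.09-fold whereas those of the other groups spread over at most 1.11-fold. The log2 fold change against P-RPC was -1.22 ± 0.20 in rESC-RPC1 (2.33-fold lower, adjusted p = 0.000474) and -2.98 ± 0.20 in rESC-RPC2 (7.87-fold lower, adjusted p = 7.42e-07). Without replicate 3 of rESC-RPC1 the first value was -0.91 and no longer called. From rESC-RPC1 to rESC-RPC2 the change was -1.76 (95% interval -2.21 to -1.31, adjusted p = 6.93e-05).

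The second Otx2 probe set (1375394_at) was dim, at 186, 187 and 234 on the P-RPC arrays, 122, 96.7 and 75.6 on those of rESC-RPC1 and 31.8, 51.3 and 48.8 on those of rESC-RPC2. The groups kept the same order and did not overlap, but no rESC-RPC array reached the threshold, so this probe set was at least 1.64-fold lower than in P-RPC in each kind of cells (adjusted p = 0.00698 and 5.15e-05). The fitted change in rESC-RPC1 was -1.06 ± 0.28, and it was not called without replicate 3 of P-RPC (-0.95) or without replicate 3 of rESC-RPC1 (-0.89). Between rESC-RPC2 and rESC-RPC1 it was called lower (adjusted p = 0.00569) from signals that all lie under the threshold, which give no fold, and the call was lost, at fitted values of -0.99 and -0.95, without replicate 1 of rESC-RPC1 and without replicate 1 of rESC-RPC2. The 2 probe sets differed in their fitted changes by 0.16 in rESC-RPC1 (adjusted p = 0.708) and by 0.75 in rESC-RPC2 (95% interval 0.21 to 1.29, adjusted p = 0.0558), and neither difference was called. Between the 2 kinds of rESC-RPCs the difference was 0.60 (adjusted p = 0.17) for Otx2 and 1.33 (adjusted p = 0.452) for Rax, also not called, where 2.78% of all such pairs were.

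Markers of the retinal pigment epithelium, a tissue in which Otx2 and Mitf act together, differed between the groups beside Otx2. Of 10 such genes on the array, 7 were detected on all P-RPC arrays, 3 on all rESC-RPC1 arrays (Dct, Pmel and Mitf) and 1 on all rESC-RPC2 arrays (Mitf), and Rpe65, Lrat and Rdh5 were under the threshold on every array. Their summed signal was 11955 to 13947 on the P-RPC arrays, 2010 to 6329 on those of rESC-RPC1 and 412 to 531 on those of rESC-RPC2. Ttr (4885 on average) and Rlbp1 (3459) made up most of the P-RPC sum. Rlbp1, the gene of Cralbp, is not specific to pigment epithelium, since the study stained Cralbp as a marker of Müller cells. Dct went the other way, at 1003 in P-RPC and 3018 in rESC-RPC1, as did Mitf, and both were called higher in rESC-RPC1 than P-RPC. Dct made up most of the sum on the rESC-RPC1 arrays. Within rESC-RPC1 the sum was 4680, 6329 and 2010 in replicates 1, 2 and 3. That order was shared by Otx2 (1375465_at), Lhx2, both Rax probe sets and the sums of the ventral forebrain and the amacrine, horizontal and ganglion cell lists, and by 28.3% of all probe sets. The part of the pigment epithelium genes in the Otx2 and Lhx2 values was not tested.

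Meis1 and Meis2, TALE-class homeodomain factors, both fell, and Meis1 fell further. Meis1 (1384308_at) read 6571, 6158 and 6896 on the P-RPC arrays, 286, 234 and 296 on those of rESC-RPC1 and 194, 174 and 144 on those of rESC-RPC2. All 9 arrays were detected and no groups overlapped. The log2 fold change against P-RPC was -4.60 ± 0.14 in rESC-RPC1 (24.2-fold lower, adjusted p = 3.74e-09) and -5.27 ± 0.14 in rESC-RPC2 (38.6-fold lower, adjusted p = 1.65e-09). From rESC-RPC1 to rESC-RPC2 the change was -0.67 ± 0.14 (adjusted p = 0.0023), too small for a call.

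Meis2 (1389728_at) read 4961, 5268 and 4770 on the P-RPC arrays, 681, 977 and 716 on those of rESC-RPC1 and 584, 692 and 533 on those of rESC-RPC2. P-RPC lay above all other arrays, and the rESC-RPC groups overlapped by 1 array each. The log2 fold change was -2.68 ± 0.14 in rESC-RPC1 (6.40-fold lower, adjusted p = 1.5e-07) and -3.06 ± 0.14 in rESC-RPC2 (8.33-fold lower, adjusted p = 6.6e-08), with -0.38 ± 0.14 between the 2 kinds of cells (adjusted p = 0.0513). Meis2 kept 15.6% and 12% of its P-RPC geometric mean, where Meis1 kept 4.14% and 2.59%. Meis3, the remaining member of the family, was not called in any comparison, with log2 fold changes of -0.39 and 0.50 against P-RPC.

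**Figure D2:**
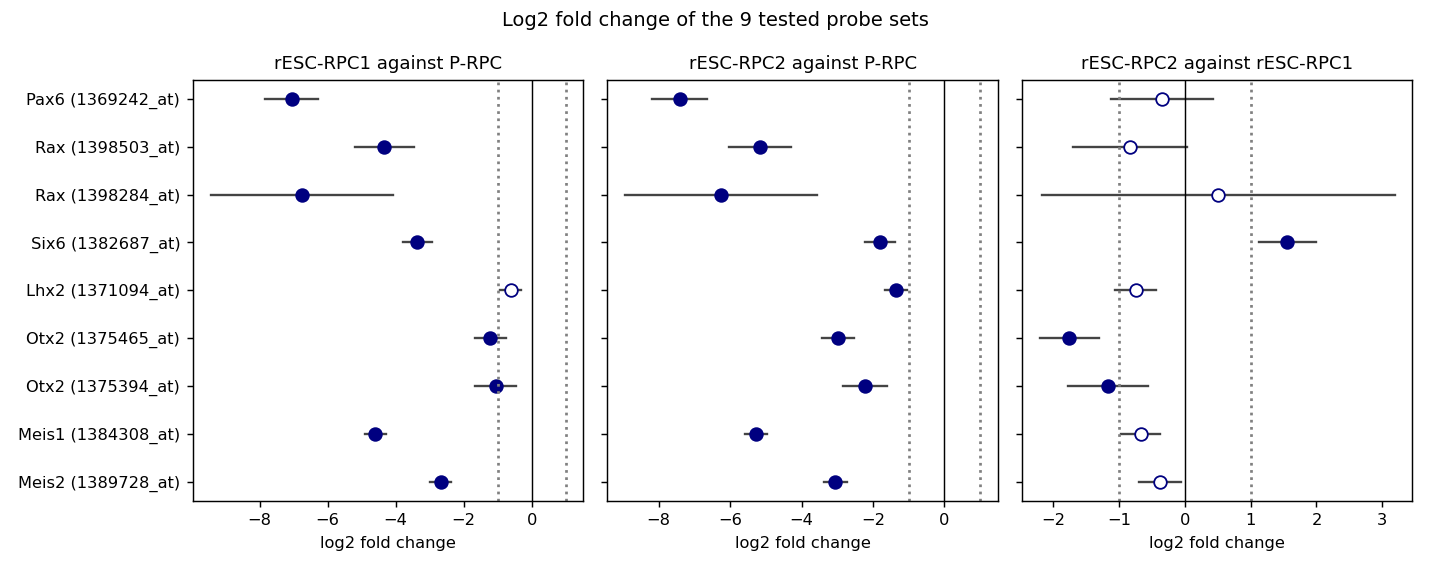
Log2 fold change (horizontal axis) of the 9 tested probe sets in the 3 comparisons, with 95% intervals as lines, filled points for calls, open points otherwise and dotted lines at a log2 fold change of 1 in either direction. Points of Pax6 in rESC-RPC2, Rax 1398284_at and Otx2 1375394_at are fitted from signals under the threshold, and Six6 at 1.56 is the called value above 0 between the 2 kinds of rESC-RPCs. The point of Pax6 in rESC-RPC1 is also a fitted value, with 1 of 3 arrays detected.

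Between rESC-RPC2 and rESC-RPC1, the factors split. Six6 was called higher in rESC-RPC2, both Otx2 probe sets were called lower, and the other 6 tested probe sets were not called, against 6.38% called higher and 7.82% called lower over all probe sets (14.2% in all). The call of Otx2 1375394_at came from signals that all lie under the threshold, and it was lost when either of 2 arrays was left out. The groups did not overlap for 5 of the 9, that probe set among them, with 51.2% over all probe sets. Against P-RPC the groups did not overlap for any of the 9, where 64.4% and 70.8% of all tested probe sets did not. Pax6, Rax 1398284_at and Otx2 1375394_at passed the filter only through P-RPC. The filter thus favoured this separation for them, and nothing is read from their part in the count.

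Whether the factors changed by different amounts was read from the difference of 2 genes' log2 signals on the same array, for 21 pairs of the 7 tested genes by their brighter probe set. The 95% interval of the difference, without shared variance (6 residual degrees of freedom) and not adjusted over the pairs, excluded 0 in 20 pairs against P-RPC in rESC-RPC1, in 18 in rESC-RPC2 and in 12 between the 2 kinds of rESC-RPCs. By limma over all probe sets minus a factor, 17, 18 and 9 pairs were called, where 81.7%, 92.1% and 42.4% of all differences from a factor were, so that nothing particular to these pairs is read from the counts. Rax and Meis1 were the pair whose interval included 0 in rESC-RPC1, at a difference of -0.26 (-1.57 to 1.06, Meis1 minus Rax), and they differed by -0.10 (-1.41 to 1.21) in rESC-RPC2. These intervals are wide enough to hold a 2-fold difference in either direction. Meis2 fell less than Meis1 by 1.92 (1.31 to 2.53) in rESC-RPC1 and by 2.21 (1.60 to 2.82) in rESC-RPC2. Of the 21 pairs, 6 hold Pax6, whose signals were under the threshold on 5 of the 6 rESC-RPC arrays, and no size is given for them. Among the 15 pairs without Pax6 the interval excluded 0 in 14, 12 and 10.

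From rESC-RPC1 to rESC-RPC2, Six6 rose against each of the 5 other genes apart from Pax6. Meis2 minus Six6 was -1.94 (-2.60 to -1.28) and Otx2 minus Six6 was -3.32 (-3.87 to -2.76). Otx2 fell against Six6, Rax, Lhx2, Meis1 and Meis2 in that comparison, and Otx2 minus Lhx2 was -1.01 (-1.38 to -0.64). Of the pairs without Six6, Otx2 and Pax6, only Meis2 minus Lhx2 had an interval that excluded 0, at 0.37 (0.05 to 0.68). The order of the factors by share of P-RPC signal kept began with Lhx2, Otx2 and Meis2 in rESC-RPC1 and with Lhx2 and Six6 in rESC-RPC2. In rESC-RPC2 the changes of Lhx2 and Six6 did not differ beyond their interval (0.44, -0.04 to 0.93), nor did those of Otx2 and Meis2 (-0.08, -0.61 to 0.45).

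**Figure D3:**
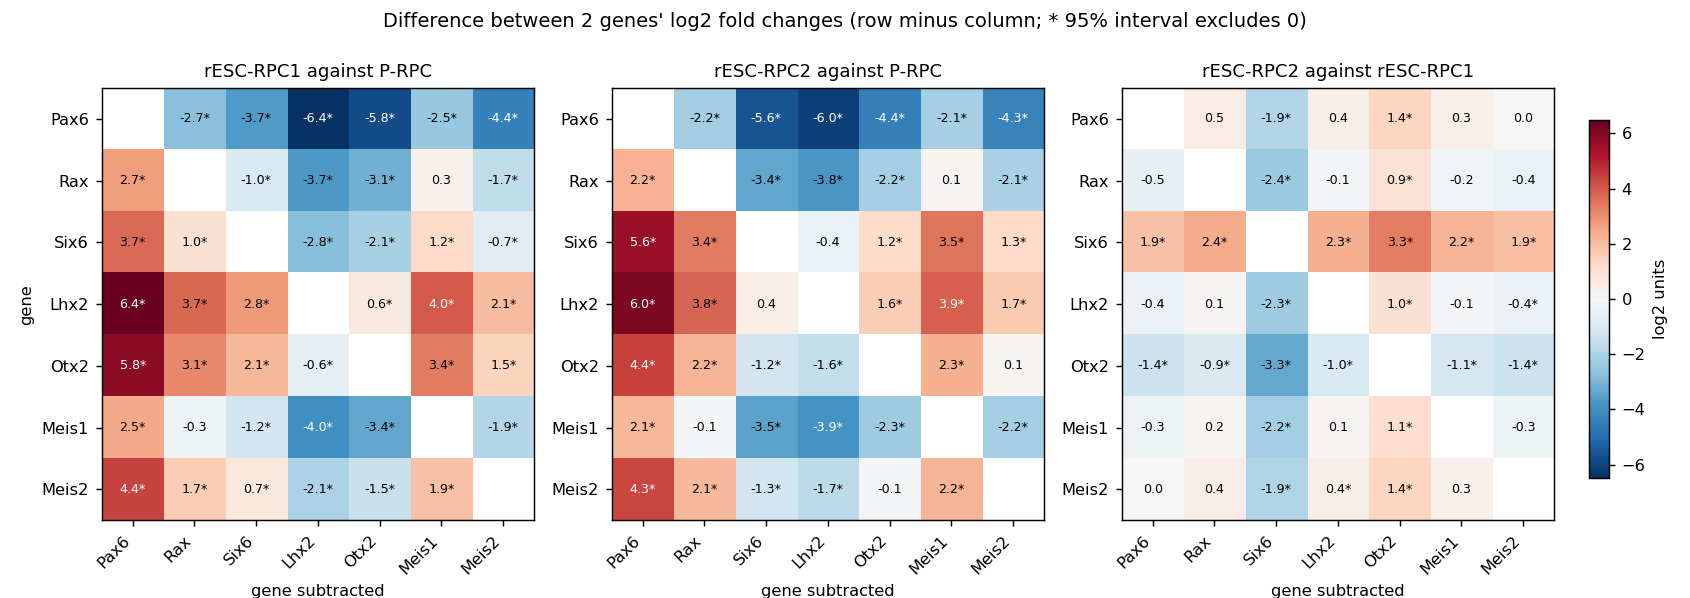
Difference of 2 genes' log2 fold changes (row gene minus column gene, in log2 units, colour scale at the right) in the 3 comparisons, with a star where the 95% interval over arrays excludes 0. In the right panel the Six6 row is positive throughout and the Otx2 row negative throughout. The Pax6 rows and columns rest on rESC-RPC signals mostly under the detection threshold and are fitted values only.

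The factors spread more between rESC-RPC arrays, where their signals were also lower, than between P-RPC arrays. The spread of all probe sets was not set beside theirs, so whether this is particular to the factors was not tested. The SD of log2 signals of the tested members was 0.02 to 0.19 on the P-RPC arrays, 0.18 to 2.91 on those of rESC-RPC1 and 0.08 to 1.59 on those of rESC-RPC2, with the highest in both kinds of rESC-RPCs from the dim Rax probe set. Replicate 3 was the lowest array for 6 of the 9 probe sets in rESC-RPC1, where 41.9% of all probe sets had it lowest, and for 7 of the 9 in rESC-RPC2, against 29.7%, and for 1 of the 9 in P-RPC, against 33.4%. Replicate 2 was highest and replicate 3 lowest for 4 of the 9 in rESC-RPC1 (28.3% of all) and 5 of the 9 in rESC-RPC2 (13% of all), and 1 of the 9 in P-RPC (17.9% of all). Replicate numbers were not taken as pairs across groups, and whether same-numbered arrays were made together was not tested. In their deviations, the replicate 2 arrays of both kinds of rESC-RPCs correlated at 0.31. So did replicate 3 of rESC-RPC1 and replicate 1 of rESC-RPC2. The cause of the order was not tested.

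**Figure D4:**
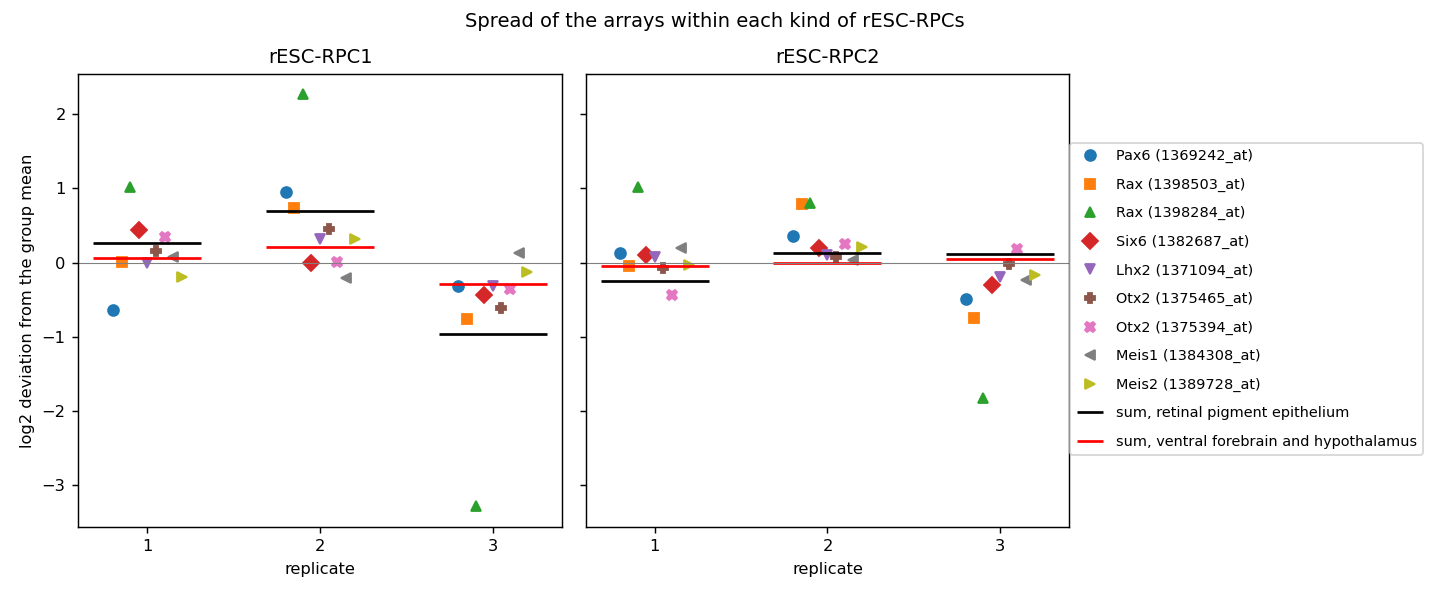
Log2 deviation of each array from its group mean (vertical axis) by replicate for the 9 tested probe sets in rESC-RPC1 and rESC-RPC2, with bars for the summed signals of pigment epithelium (black) and ventral forebrain and hypothalamus (red) markers. In rESC-RPC1 the black bar is highest in replicate 2 (6329) and lowest in replicate 3 (2010), as are the red bar (8309 and 5899), Otx2 (1375465_at), Lhx2 and both Rax probe sets.

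Other genes of the same network gave a split picture, in lists drawn up from general knowledge of eye development but with earlier results of these data known. Of 15 eye field and optic vesicle factors on the array, 11 were tested, and 6 were called lower in rESC-RPC1 and 7 in rESC-RPC2, with 0 higher in either (9.56% and 13% of all 9956 tested genes were called lower, 12% and 10.7% higher, 21.5% and 23.7% in all). The 6 called in both, Tbx3, Tbx5, Vax2, Mab21l1, Mab21l2 and Rorb, were under the threshold on every rESC-RPC array and were tested only because they were high in P-RPC, so that they could only come out lower and nothing is read from the count. Mab21l1, a gene needed for optic vesicle and lens growth, was at least 49.1-fold lower in each (adjusted p = 5.87e-06 and 1.16e-05). Rorb, a nuclear receptor of retinal progenitors, was at least 11.5-fold lower, and the T-box factors Tbx3 and Tbx5, which pattern the dorsal optic cup, were at least 7.84-fold and 2.98-fold lower. Mab21l2 was at least 5.50-fold lower and the ventral factor Vax2 at least 1.79-fold lower.

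The remaining factors of that list are used widely in the neural tube, and most were not called. Sox2, a factor of neural progenitors at large, read 4936 on the P-RPC arrays, 9368 on those of rESC-RPC1 and 6468 on those of rESC-RPC2 on average, with log2 fold changes of 0.91 ± 0.10 and 0.39 ± 0.10 that were too small for a call. Nr2f1 stood at -0.36 ± 0.13 and 0.00 ± 0.13 and Nr2f2 at -0.39 ± 0.13 and -0.45 ± 0.13. Hes1, a Notch effector, was called lower in rESC-RPC2 at -1.38 ± 0.07 and not in rESC-RPC1 at -0.45 ± 0.07. Between rESC-RPC2 and rESC-RPC1, 0 of the 11 were called by limma at this fold, 4 had an unadjusted p under 0.05 and 0 were called by the methods' plain test without adjustment, where 5.02% of all tested genes were called higher and 9.24% lower (14.3% in all), with Hes1 at -0.94 the farthest from 0 (adjusted p = 7.18e-06).

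Relatives of the 8 factors in their gene families were mostly dim. Of 16 on the array, 6 were tested, and 3 were called lower in rESC-RPC1 and 4 in rESC-RPC2, with 0 and 1 higher (9.56% and 13% of all tested genes were called lower, 12% and 10.7% higher). Lhx9, Crx and Isl2, the 3 called lower in both, were under the threshold on every rESC-RPC array. They were tested only because they were high in P-RPC, so that nothing is read from the count. Lhx9, a LIM homeodomain factor close to Lhx2, was at least 15.4-fold lower in each kind of cells, whereas Lhx2 itself fell by 1.53-fold and 2.57-fold. Crx, the OTX relative that acts in photoreceptors, was at least 1.18-fold lower, and Isl2 at least 1.22-fold lower. In rESC-RPC2, Isl1 was called above P-RPC (log2 fold change 1.09 ± 0.28, adjusted p = 0.00678) and above rESC-RPC1 (1.74 ± 0.28, adjusted p = 0.000619). Otx1, Six4 and 5 further PAX genes were under the threshold on all 9 arrays.

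Proteins that work with these factors did not move in 1 direction. Of 20 tested genes for PBX and PREP partners, EYA and DACH cofactors, LIM cofactors and Groucho corepressors, 5 were called higher and 6 lower in rESC-RPC1, and 5 higher and 8 lower in rESC-RPC2 (all tested genes: 12% and 10.7% higher, 9.56% and 13% lower). Dach1, a corepressor that works with EYA proteins, fell the furthest, at -3.26 ± 0.15 and -2.78 ± 0.15 (adjusted p = 5.96e-08 and 1.68e-07). The corepressors Tle1 and Tle3 were lower, at -1.39 and -1.39 in rESC-RPC1 and at -1.72 and -1.16 in rESC-RPC2. Among cofactors of LIM factors such as Lhx2, Ssbp3 was lower (-1.57 and -1.45), Ssbp2 higher (1.38 and 1.59), Ldb2 at least 2.28-fold and 2.25-fold higher, and Ldb1, the main LIM cofactor, was not called (-0.71 and -0.82). Lmo3, a LIM-only protein, was under the threshold in P-RPC, and rESC-RPC1 exceeded it at least 6.09-fold and rESC-RPC2 at least 16.4-fold. The MEIS partners Pbx2 and Pbx3 were not called in any comparison, with values between -0.73 and 0.64.

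Of 8 genes on the array that act after the eye field factors in the retina, 6 were tested and 5 of these called lower in each kind of rESC-RPCs, where 9.56% and 13% of all tested genes were. Those 5 reached the filter through P-RPC, where they were high, so that the filter set the direction of the count and nothing is read from it. Neurod1, a proneural factor of photoreceptors and amacrine cells, read 13392 ± 553 on the P-RPC arrays, 115 ± 34.1 on those of rESC-RPC1 and 93.6 ± 10.7 on those of rESC-RPC2, at least 109-fold lower in rESC-RPC2 (adjusted p = 3.69e-09). Prdm1, a photoreceptor fate factor that acts after Otx2, fell at least 26.5-fold in each, Neurog2 at least 9.01-fold lower and Ptf1a, the amacrine and horizontal cell factor, at least 8.49-fold lower. Mitf, the pigment epithelium factor, was the exception, above P-RPC in rESC-RPC1 (1.42 ± 0.14, adjusted p = 1.33e-05) and lower in rESC-RPC2 than in rESC-RPC1 (-2.00 ± 0.14, adjusted p = 4.43e-06).

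**Figure D5:**
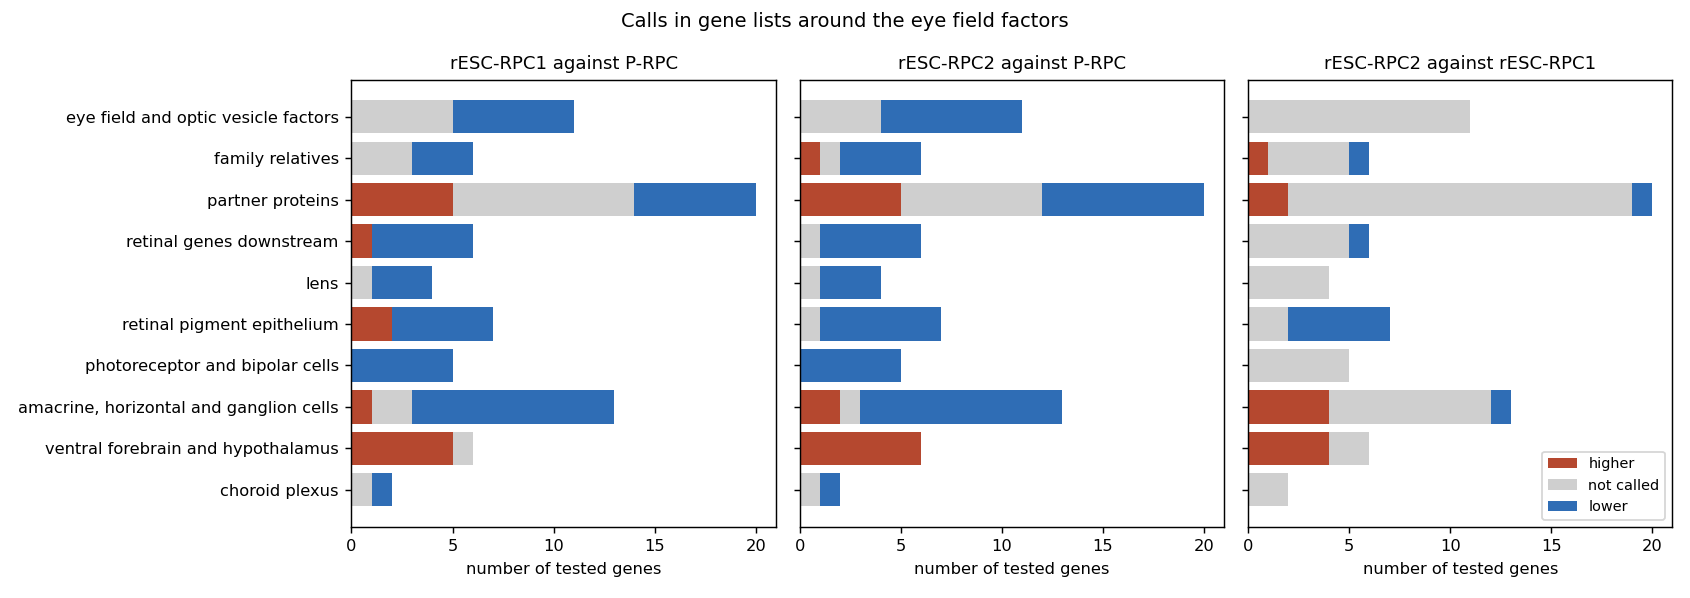
Number of tested genes (horizontal axis) called higher, called lower or not called in 10 lists of genes in the 3 comparisons. Against P-RPC the lists of eye field factors, photoreceptor and bipolar cells and amacrine, horizontal and ganglion cells are mostly lower, and the list of ventral forebrain and hypothalamus is higher in 5 of 6 genes in rESC-RPC1 and 6 of 6 in rESC-RPC2. Many genes of these lists passed the filter only through the group where they were high, which set the direction of their calls.

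Markers of the cells that a P1 retina or a forebrain culture can hold differed with the groups. All 5 tested photoreceptor and bipolar genes were called lower in each kind of rESC-RPCs (9.56% and 13% of all tested genes), a direction set by the filter, which they passed through P-RPC alone. Their summed signal was 6469 to 7461 on the P-RPC arrays, 169 to 225 on those of rESC-RPC1 and 127 to 182 on those of rESC-RPC2, where all 8 such genes were under the threshold. Of 13 amacrine, horizontal and ganglion cell genes, 10 were called lower in each (9.56% and 13% of all tested genes), with 1 and 2 higher (12% and 10.7%), Gad1 in both. Tfap2b, Ptf1a, Pou4f1 and Calb2, among those called lower, were under the threshold on every rESC-RPC array. They passed the filter through P-RPC alone, which set their direction. The sum of the 13 genes was 21465 to 22501 on the P-RPC arrays, 4003 to 5632 on those of rESC-RPC1 and 10076 to 11505 on those of rESC-RPC2. Gad1, which GABAergic neurons of the forebrain also make, averaged 834, 3069 and 8726 in the 3 groups and thus made up most of the sums in rESC-RPC1 and rESC-RPC2. Genes of postmitotic retinal neurons were thus detected in P-RPC, and several of these cell types keep Pax6, Otx2, Meis2 or Six6, and the part of these cells in the values of the eye field factors was not tested.

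Of 6 tested ventral forebrain and hypothalamus genes, 5 were called higher in rESC-RPC1 and 6 in rESC-RPC2, and 4 were called higher in rESC-RPC2 than rESC-RPC1 (12%, 10.7% and 5.02% of all tested genes). Nkx2-1, Dlx5, Npvf and Gad2 were under the threshold on every P-RPC array and passed the filter through rESC-RPCs alone. The filter thus set the direction of their calls against P-RPC, and nothing is read from those counts. Gad2 was also under the threshold on every rESC-RPC1 array, which set its direction between the 2 kinds of cells. Nkx2-1, a ventral forebrain factor, was at least 25.3-fold and 16.9-fold higher than in P-RPC, and the hypothalamic peptide gene Npvf at least 2.02-fold and 44.3-fold higher. Pomc, Otp and Sim1, which also mark hypothalamic neurons, were under the threshold on all 9 arrays. Of 7 choroid plexus genes, 2 were tested, and Ttr, which pigment epithelium also makes, was called lower in each. Of 4 tested lens genes, Cryaa, Cryba1 and Crybb3 were called lower in each, where 9.56% and 13% of all tested genes were. These 3 passed the filter through P-RPC alone, which set their direction, and replicate 1 held most of the P-RPC lens signal. On all rESC-RPC arrays 13 of 14 lens genes were under the threshold, and Cryab, which is not lens-specific, was detected on all of them.

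For each factor, the genes with the most similar profile over the 9 arrays were named by the root mean square difference of centred log2 signals, as a description of likeness and nothing more, since the same 3 groups set most of each profile. For Pax6 they were Sag (0.227), the photoreceptor arrestin, Neurod1 (0.498) and the collagen gene Col9a1 (0.532), all under or near the threshold in both kinds of rESC-RPCs. For Rax they were Ptf1a (0.227), Ebf1 (0.405) and the neuropeptide gene Gal (0.438). Meis1 was most like Cldn11 (0.271), the retinoic acid binding protein gene Crabp1 (0.282) and Rp1l1 (0.296). Meis2 was nearest to Fam111a (0.218), Fn3k (0.22) and Rbpms2 (0.221). Lhx2 had the nearest neighbours, Iffo1 (0.123), Narf (0.13) and Serpine2 (0.133), where the median difference over all genes was 0.664. Their log2 fold changes against P-RPC were -0.64, -0.41 and -0.40 in rESC-RPC1 and -1.40, -1.23 and -1.14 in rESC-RPC2.

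Six6 and Otx2, the factors that separated the 2 kinds of rESC-RPCs, had different neighbours. Six6 was nearest to Onecut2 (0.234), a factor of horizontal and ganglion cells, Lrrc4c (0.238) and Slco4a1 (0.241). Onecut2 read 364 ± 55.4 on the P-RPC arrays, 50.3 ± 15.7 on those of rESC-RPC1 and 117 ± 26.3 on those of rESC-RPC2. Otx2 was nearest to the nuclear receptor gene Nr1d2 (0.123), Abhd14b (0.184) and Crym (0.204), a thyroid hormone binding protein gene. Crym read 13134 ± 1289, 5416 ± 1724 and 1696 ± 315 in the same order of groups. Among the 7 tested factors the most alike were Rax and Meis1, at 0.546.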

How the data were processed

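Expression was measured on rat Affymetrix 3′ arrays, with 3 biological replicates per group according to the labels and independent experiments according to the methods. The authors removed background and normalised each array with MAS5 (version not given in the sources used here), and deposited 1 linear intensity per probe set, with medians of 113 to 128 per array. The log2 of the deposited signals was computed here after a floor of 1. After 57 control probe sets were left out, 31042 remained, of which 20826 carry 1 gene symbol, 436 several and 9780 none. The filter asked for 3 of 9 arrays at the threshold of 123 and kept 17048 probe sets and 9956 genes (by the probe set of highest mean).

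The fit used limma 3.58.1 in R 4.3.3 (eBayes, variance trend) with a mean for each group, fitted on all 9 arrays, and Benjamini-Hochberg adjustment over all tested probe sets. The scripts were tested on simulated data. Pairs of probe sets were fitted over the 3095 pairs of the same gene. For pairs of factors, the planned limma fit over all probe sets minus 1 factor gave far too small p-values, since every row carries the noise of the subtracted factor; it called 17, 18 and 9 of 21 pairs, where 81.7%, 92.1% and 42.4% of all rows were called. Intervals of each pair over the arrays, added after the data were seen, are reported in its place. The text names all 8 factors, up to 4 called genes per list and comparison with the smallest adjusted p, and the 3 genes of most similar profile; others are named as list members after their values were seen. The factors and lists were chosen with earlier results of these data known. Alternatives covered scaling, filter, floor, variance prior, samples, replicate block, test and each replicate left out. The number of arrays limits the precision, and the promoter search used RefSeq sequences.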

Additional observations from a re-analysis of the deposited data

How the results depend on the processing

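The counts of called probe sets of the eye field factors stayed within 1.5 times under every alternative run: 6 to 8 against 8 in rESC-RPC1, 7 to 9 against 9 in rESC-RPC2 and 2 to 4 against 3 between the 2. The low ends against P-RPC came from fewer probe sets entering the test, or, in rESC-RPC1, from leaving out replicate 3. Over the arrays left out in turn the ranges were 6 to 8, 9 to 9 and 2 to 4, and pairs of factors gave 17 to 18, 18 to 18 and 6 to 9. The methods' t-test at a fold of 2 gave 8, 9 and 3, and 8, 9 and 2 after Benjamini-Hochberg. Of the alternative values of single log2 fold changes, 491 stayed called or stayed uncalled, 8 lost the call and 2 gained it. Direction turned in 0 of the values called in the main fit or in the alternative. Uncalled values could change sign, and Pax6 between the 2 kinds of rESC-RPCs ran from -0.67 to 0.13 over the arrays left out. All values that lost the call were those of Otx2. With signals raised to the threshold, 1375394_at came to -0.71, -0.71 and 0 in the 3 comparisons (-1.06, -2.23 and -1.16 as fitted), which follows from the raised floor; the others lost it when an array was left out.

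Differences between probe sets of a gene depended on how low signals were treated. For Rax in rESC-RPC1 the difference was called with a floor of 16 (-1.09) and turned direction with a floor at the threshold (1.24), as it did in rESC-RPC2 (1.84). For Otx2 a floor at the threshold gave called differences of 2.26 in rESC-RPC2 against P-RPC and 1.76 between the 2 kinds of cells. With each array left out, the Rax difference ran from -3.18 to -1.16 in rESC-RPC1. Quantile normalization and median centring moved the median of all probe sets by at most 0.08. Same-numbered arrays correlated between -0.06 and 0.31 in their deviations, with 1 of 9 pairs over 0.1, so the numbers were not taken as pairs; a replicate block called 8, 9 and 3 probe sets and 17, 18 and 10 pairs of factors, and changed no other call. Signals under the threshold leave only bounds for Pax6 in rESC-RPC2, the second probe sets of Rax and Otx2, and nothing for Six3.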
